A study of Mus musculus with 15 samples.

Results

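Fos, Fosb, Fosl1, Jun, Junb and Atf3 were read in mouse embryonic stem (ES) cells over a course of fetal bovine serum (FBS). These 6 genes encode some of the classical subunits of the transcription factor AP-1, and a related factor. Every probe set (a group of short probes that reads one transcript) annotated to one of them alone was taken, which gave 6 of 8221 named genes and 9 of the 12654 probe sets on the array. Junb was read by 2 probe sets, Atf3 by 3 and each other gene by 1. Total RNA was hybridised to Affymetrix MGU74A arrays at 0, 10, 30, 60 and 180 min of FBS in 3 ES cell lines, with 1 array for each line and time and 15 arrays in all. The lines were an Srf-null line (E100-/-), a line named as its rescue (E100-/- rescue) and a wild-type line (E14wt). Srf encodes serum response factor. The labels name each line once and give neither the number of clones or cultures nor the way the rescue was made. Where lines are compared, the 5 times of a line stood in for its replicates, and p-values measure only the spread over those arrays.

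AP-1 is a dimer of bZIP proteins, in which a Fos subunit pairs with a Jun subunit and the pair binds short palindromic DNA sites. Most of the Fos and Jun genes are immediate-early genes, which are transcribed within minutes of serum without the making of new protein. Serum response factor binds the CArG box, and it controls part of the immediate-early genes through this element together with ternary complex factors or actin-regulated cofactors. ATF3 is a bZIP protein of the CREB/ATF family that is induced by stress and growth signals and can pair with Jun proteins.

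Promoter sequence from RefSeq on build GRCm38.p6 was found for 5 of the 6 genes. A window of 130 bases upstream of the annotated gene is shown for them, because the lines differ in the factor that reads CArG boxes and because bZIP proteins can bind the members' own promoters. Capitals mark matches to the motifs searched, read 5′ to 3′ on the strand of the gene, with the last base before the start in the promoter table at -1. The windows run from -130 to -1, except that of Fosb, which runs from -203 to -74 because the 73 bases next to its start in that table lie inside the annotated gene. The windows are chr12:85473760-85473889 on the plus strand for Fos and, on the minus strand, chr7:19310119-19310248 for Fosb, chr4:95052223-95052352 for Jun, chr8:84978749-84978878 for Junb and chr1:191183334-191183463 for Atf3.
Fos: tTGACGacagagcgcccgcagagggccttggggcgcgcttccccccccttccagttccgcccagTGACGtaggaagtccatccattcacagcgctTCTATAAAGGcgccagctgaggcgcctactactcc
Fosb: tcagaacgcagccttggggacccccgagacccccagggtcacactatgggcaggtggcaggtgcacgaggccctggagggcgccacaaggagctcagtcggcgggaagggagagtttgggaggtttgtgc
Jun: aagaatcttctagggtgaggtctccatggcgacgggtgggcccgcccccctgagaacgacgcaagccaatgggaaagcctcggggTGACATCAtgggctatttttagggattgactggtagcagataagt
Junb: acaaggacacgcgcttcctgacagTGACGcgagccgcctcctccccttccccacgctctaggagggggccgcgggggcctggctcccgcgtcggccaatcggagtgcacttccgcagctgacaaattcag
Atf3: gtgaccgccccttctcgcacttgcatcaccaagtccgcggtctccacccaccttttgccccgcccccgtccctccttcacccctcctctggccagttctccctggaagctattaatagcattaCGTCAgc

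The search covered both strands of the 250 bases before each start. A full CArG box was found in 0 of the 5 windows, and in 1.47% of 32851 RefSeq promoter windows of the same length. Sequence farther upstream than 250 bases was not searched, so the windows cannot show whether a member has a CArG box there. With up to 1 mismatch, a CArG-like stretch lay at -35 to -26 in Fos, where it overlapped TATAAA at -33 to -28, and at -197 to -188 in Atf3, outside the bases shown; 18.6% of all windows held such a stretch and 12.4% held TATAAA. The AP-1 site TGACTCA was in 0 of the 5 windows (4.46% of all windows) and the cAMP response element TGACGTCA in 0 (1.55%). The variant TGACATCA, looked for after the sequences had been read, lay at -45 to -38 in Jun and in 2.93% of all windows. The shorter element TGACG, with which TGACGTCA begins, lay at -129 to -125 and -66 to -62 in Fos, at -60 to -56 in Fosb (inside the annotated gene and not shown), at -106 to -102 in Junb and, on the opposite strand, at -7 to -3 in Atf3; 17.8% of all windows held it. These matches describe the letters of the windows and no binding was measured.

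The lines carried ES cell RNA by their markers. All 10 ES cell markers (Pou5f1, Sox2, Nanog and others) were above the floor used for low signal on at least 1 array of each line. Not all passed it on every array, and Esrrb was at -190, -192 and 5.7 on wild-type 0, 10 and 30 min. The summed intensity of the ES cell markers was 81987 to 112032 in Srf-null, 72237 to 95639 in rescue and 65244 to 107209 in wild-type cells. Of 9 fibroblast markers on the array, 7 in Srf-null, 6 in rescue and 8 in wild-type cells were above the floor on at least 1 array, and Col1a2 was at the floor on all. Their sums were 1027 to 2277 in Srf-null, 1110 to 1816 in rescue and 1048 to 3838 in wild-type cells. Trophoblast markers, with Hand1 at the floor on all arrays, summed to 756 to 2342 in Srf-null, 2486 to 16767 in rescue and 1421 to 6727 in wild-type cells. Sums of the 8 endoderm markers, with Apoa1 at the floor throughout, overlapped between the lines, at 2059 to 3134, 2010 to 3584 and 2157 to 3056 in that order. Over all times the 6 tested trophoblast markers had a median log2 difference of -1.44 between Srf-null and rescue cells, with 5 of 6 lower, against a median of 0.02 over all tested probe sets. Tfap2c among them was called lower (-4.27 ± 0.58, adjusted p 0.00847), and the ES cell marker Fgf4 was called higher (0.67 ± 0.11, adjusted p 0.035). The part of other cell types in the results below was not tested. In bulk RNA, fewer cells of a type and less RNA per cell cannot be told apart.

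Some arrays stood apart from the rest of their line. Srf had 0 probe sets in the annotation, and its own level could not serve as a check of the genotypes. Igf2, a fetal growth factor gene chosen after its values were seen, lay between -1815 and -673 on the 5 Srf-null arrays. It was at -1829 on the array labelled rescue 0 min, against 5942 to 10240 on the later rescue arrays, and at -1853 on the array labelled wild-type 0 min, against 2640 to 5223 on the later wild-type arrays. Those 0 min arrays also had the highest ratios of 3′ to 5′ beta-actin signal, a sign of RNA degradation, at 4.22 and 7.53, followed by 3.83 for Srf-null 60 min. The other 12 arrays had 0.847 to 2.94. The same ratio for Gapdh was 1.51 on wild-type 0 min, but 0.722 on rescue 0 min and 0.785 on Srf-null 60 min, where the controls thus disagreed. It was 1.27 on Srf-null 0 min, 1.23 on wild-type 180 min and 0.683 to 0.840 on the remaining arrays. Trimmed mean signal ran from 350 to 1439 intensity units and the share of values at or below 0 from 24.9% to 41.6%. That share was 39.0%, 41.6% and 37.1% on Srf-null 30, 60 and 180 min, and 37.6% and 37.4% on rescue 0 and 10 min. On the rescue and wild-type arrays of 60 and 180 min it was 24.9% to 27.5%, so it differed between the lines at these times. Steps that the 0 min arrays moved by over 1.5 times or turned in sign, and calls that they made or ended, are also given without them.

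All values below are quantile-normalized intensities, with 1 value per array and so no replicate spread at a single point. The floor of 84.98 marks signal too low to rank, and all 9 probe sets passed the filter of at least 2 arrays above it. Levels are not compared between genes, because probes differ in brightness. Times run from 0 through 10, 30 and 60 to 180 min.

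Fosb, whose protein is a Fos subunit of AP-1, was above the floor on all 15 arrays and showed the plainest course. In Srf-null cells its intensity was 2042, 1311, 1413, 1621 and 1571 over the 5 times. In rescue cells it was 1455, 1402, 1249.7, 4956 and 4685. In wild-type cells it was 1947, 1250.2, 1347, 6059 and 5913. The 60 and 180 min arrays of rescue and wild-type cells stood above every other array, and the 5 Srf-null arrays overlapped the 0 to 30 min arrays of the other lines. At 60 min the Srf-null value was 0.327 times the rescue value and 0.268 times the wild-type value, and at 180 min 0.335 and 0.266 times. Whether the wild-type level at 180 min lay under or over that at 60 min depended on the scaling, with a ratio of 180 over 60 min of 0.976 after quantile normalization, 1.05 after trimmed-mean scaling and 1.14 after scaling to a common median.

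Fos, the founding member of the family and a gene of the first minutes of the serum response, gave a weak and scattered signal, above the floor on 11 of 15 arrays. Its values were 47.7, 231, 5.1, 165 and 111 in Srf-null cells, then 89.8, 62.9, 144, 162 and 207 in rescue cells, and 523, 93.7, -40.1, 136 and 332 in wild-type cells. The highest value of all stood on the wild-type 0 min array, and the lines overlapped. No peak at 30 min was seen in any line. Whether the probes of this set read the Fos transcript well could not be checked in the files.

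Fosl1 encodes FRA-1, a Fos subunit that lacks the strong activation domain of FOS. It exceeded the floor on only 2 of 15 arrays. These were Srf-null 180 min, at 337, and rescue 180 min, at 246. The wild-type values ran from -444 to -11.5 and none passed the floor.

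Jun, the subunit that can form homodimers as well as pair with Fos proteins, was above the floor on 8 of 15 arrays. Its values were -111, 94.2, -254, 47.6 and 758 in Srf-null cells. They were 946, 68.5, -302, 289 and 1033 in rescue cells and 121, 47.2, -101, 1174 and 1464 in wild-type cells. Both later wild-type arrays stood above the earlier ones, in rescue cells the doubted 0 min array lay near the 180 min array, and in Srf-null cells the 180 min array alone stood clear. At 60 min the Srf-null array was at the floor, so the wild-type value was at least 13.8-fold higher and the rescue value at least 3.40-fold higher. At 180 min the Srf-null value was 0.734 times that of rescue cells and 0.518 times that of wild-type cells.

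Junb, a Jun subunit that activates fewer AP-1 sites than JUN and can oppose it, was read by a probe set built from fewer probes than usual (102362_i_at) and by one that dropped some design rules (102363_r_at). The first gave -212, 197, 382, 205 and 1182 in Srf-null cells, 658, 433, 407, 1717 and 2338 in rescue cells, and 180.4, 109.9, 173, 3161 and 3517 in wild-type cells. The second gave 1602, 46.3, 485, 829.7 and 1028 in Srf-null cells, 596, 588, 187, 1512 and 2399 in rescue cells, and 17.1, 181, 358, 1735 and 1963 in wild-type cells. Both probe sets placed the 60 and 180 min arrays of rescue and wild-type cells above the 3 earlier arrays of the same line, and both placed Srf-null cells below the other lines at these times. They disagreed on the Srf-null 0 min array, which was the lowest of its line by the first and the highest by the second. At 60 min the first read Srf-null cells at 0.12 times the rescue and 0.0649 times the wild-type value, and the second at 0.549 and 0.478 times. Across the 15 arrays the probe sets correlated at r = 0.647, a description over arrays that share their normalization. Both Junb probe sets were annotated to the same source sequence, so they are not independent readings.

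Atf3 was read by 3 probe sets, of which 2 ran together and the third against them. The probe set with probes shared within a gene family (104155_f_at), above the floor on all arrays, gave 487, 158, 218, 469 and 573 in Srf-null cells. It gave 899, 595, 600.4, 3116 and 5522 in rescue cells and 237, 598, 268, 2033 and 4641 in wild-type cells. The Srf-null arrays spanned less than a 4-fold range and lay below the rescue arrays at 5 of 5 times and below the wild-type arrays at 4 of 5, with the exception at 0 min. At 180 min the Srf-null value was 0.104 times that of rescue cells and 0.123 times that of wild-type cells, and at 60 min 0.15 and 0.231 times.

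The second Atf3 probe set (104156_r_at) was at the floor on all 5 Srf-null arrays, from -323 to 49.3. It passed the filter only through rescue and wild-type arrays, so it could only be at or below the other lines in Srf-null cells. It gave -131, 183, 152, 463 and 1487 in rescue cells and -326, 12.9, 31.6, 309 and 1225 in wild-type cells. At 180 min rescue cells were at least 17.5-fold and wild-type cells at least 14.4-fold above Srf-null cells by this set. The third (97035_i_at) gave 261, 53.4, 172, 446 and 161 in Srf-null cells, 185, -39.8, 59.8, 54.5 and 121 in rescue cells, and 197, 40.9, 41.7, 79.9 and 26.9 in wild-type cells, so Srf-null cells lay above both other lines at 60 and 180 min. It correlated with the other Atf3 probe sets at r = -0.276 and r = -0.402 over 15 arrays, while those correlated with each other at r = 0.905. Those sets, 104155_f_at and 104156_r_at, were annotated to the same source sequence and 97035_i_at to another, so they are not independent readings. Which of the probe sets reads the Atf3 transcript best was not tested.

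**Figure D1:**
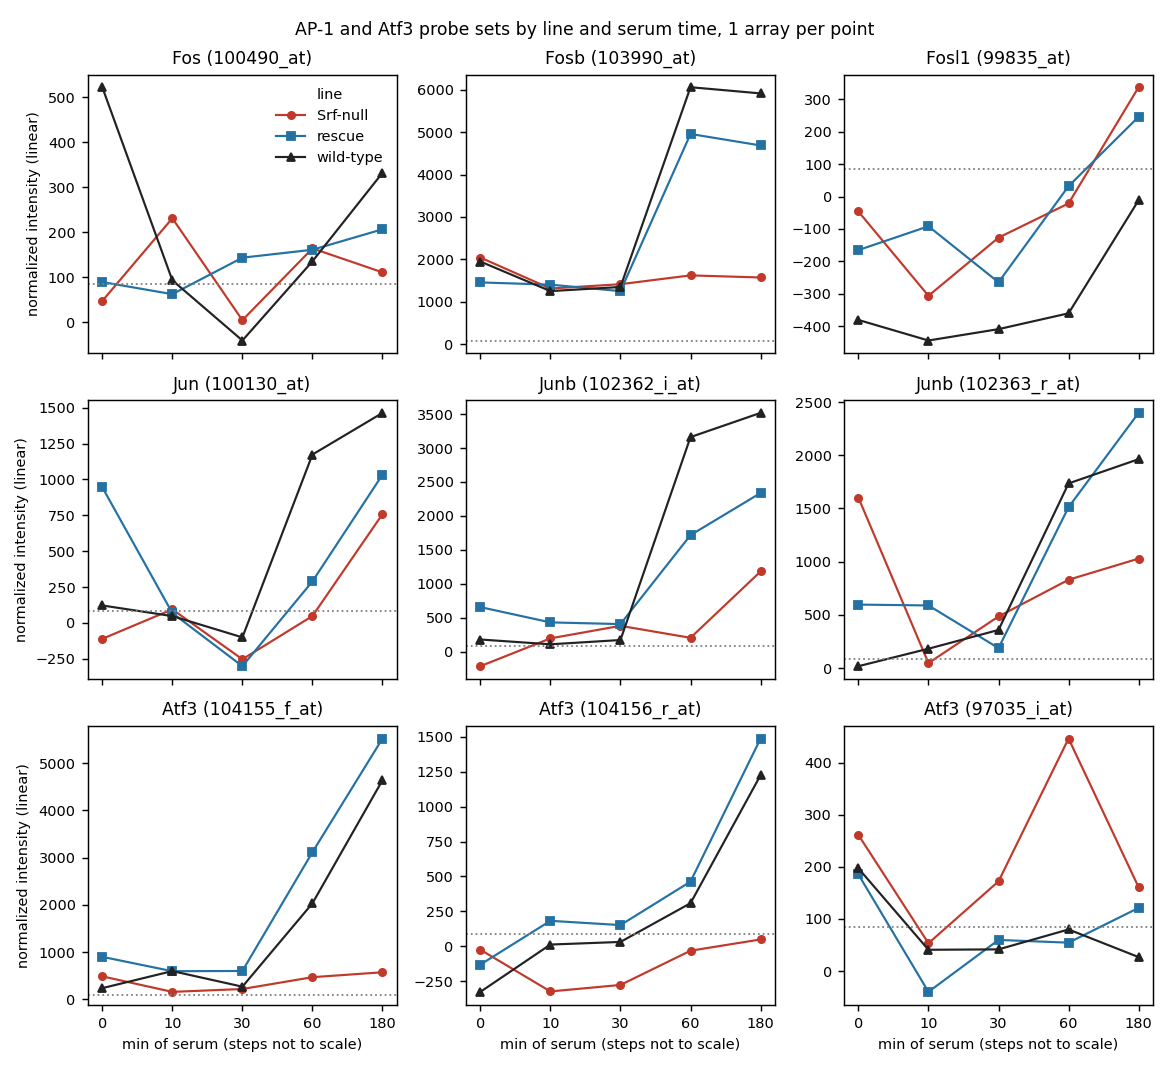
Intensity of each of the 9 probe sets against minutes of serum, 1 panel per probe set and 1 line of points for the Srf-null, rescue and wild-type cells, with 1 array per point. The intensity axis is linear, the time axis is not to scale, and the dotted line is the floor. Fosb in rescue and wild-type cells is at most 1947 over the first 3 times and at least 4685 at 60 and 180 min, while the Srf-null points lie between 1311 and 2042.

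The shared timing was summed up by the difference between the mean log2 value at 60 and 180 min and that at 0, 10 and 30 min, called the step here. The boundary after 30 min was chosen after the values were seen, so the steps are a description. For Fosb the step was 0.03 log2 units in Srf-null cells, 1.82 (3.53-fold) in rescue cells and 2.01 (4.03-fold) in wild-type cells. For Atf3 by 104155_f_at it was 1.02 (2.03-fold) in Srf-null, 2.60 (6.05-fold) in rescue and 3.19 (9.15-fold) in wild-type cells. Junb by 102362_i_at had steps of 1.41, 2.04 and 4.47 in Srf-null, rescue and wild-type cells, and by 102363_r_at 1.19, 2.24 and 3.39. Jun had 1.53 in Srf-null, 1.53 in rescue and 3.78 in wild-type cells. Jun lay at the floor at 10 and 30 min in rescue and wild-type cells, so these steps are lower limits. In Srf-null cells Jun lay at the floor at 0, 30 and 60 min, which fall on both sides of the boundary. Junb steps of 102362_i_at in Srf-null cells and of 102363_r_at in Srf-null and wild-type cells are also lower limits, because an earlier value lay at the floor. With values raised to the floor, the order of the lines for Fosb, both Junb probe sets and 104155_f_at was thus Srf-null, rescue, wild-type from the smallest to the largest step.

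The 0 min arrays bear on some of these steps. Without them the step of Jun in rescue cells was 2.69, against 1.53 with them, and that of 102363_r_at in Srf-null cells 2.19, against 1.19 with them. The step of 102362_i_at in Srf-null cells was 0.84 without them, against 1.41 with them, and that of Fosb was 0.23 in Srf-null, 1.86 in rescue and 2.21 in wild-type cells. For Fos the step was -0.05 in Srf-null, 0.73 in rescue and 1.25 in wild-type cells without the 0 min arrays, against 0.19, 0.83 and 0.40 with them. With them, the sign for Fos in Srf-null cells also turned under trimmed-mean and common-median scaling (-0.47 and -0.48). The Atf3 probe set 97035_i_at had steps of 0.78, -0.12 and -0.40 in Srf-null, rescue and wild-type cells, and its sign in rescue cells turned under these scalings (0.32 and 0.31) and without the 0 min arrays (0.26); without these arrays its step was 1.15 in Srf-null and 0 in wild-type cells. Egr1, an immediate-early gene of the same response that encodes a zinc finger factor, had steps of -0.11 in Srf-null, 4.55 in rescue and 4.98 in wild-type cells. Without the 0 min arrays they were -0.10, 3.35 and 3.86.

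**Figure D2:**
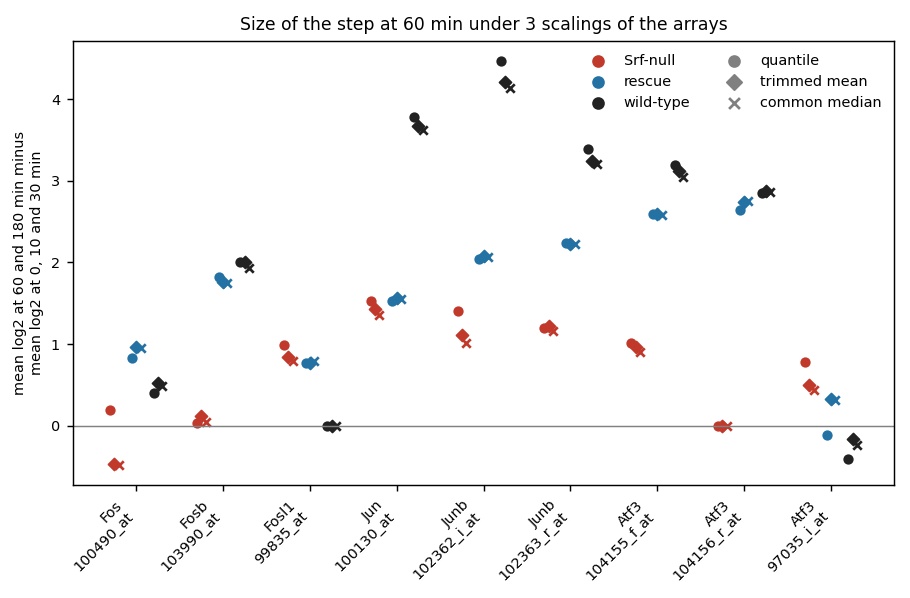
The step of each probe set (mean log2 intensity at 60 and 180 min minus that at 0, 10 and 30 min) in Srf-null, rescue and wild-type cells under quantile, trimmed-mean and common-median scaling, 1 point per scaling. Fosb lies near 0 in Srf-null cells (0.03 to 0.11) and between 1.75 and 2.01 in rescue and wild-type cells under all 3 scalings.

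Counted by arrays that do not overlap, 0 of 9 probe sets in Srf-null cells had both later arrays above all 3 earlier ones and above the floor, against 6 of 9 in rescue cells and 6 of 9 in wild-type cells. Over all 9558 tested probe sets the same held for 9.24% in Srf-null, 7.54% in rescue and 5.26% in wild-type cells. In rescue cells the 6 were Fos, Fosb, both Junb probe sets and 2 of Atf3; in wild-type cells they were Fosb, Jun, both Junb probe sets and the same 2 of Atf3. With 60 and 180 min pooled, both Srf-null arrays lay below all 4 arrays of the other lines for 5 of 9 probe sets (Fosb, both Junb and 2 of Atf3), against 8.31% of all tested probe sets. Atf3 104156_r_at passed the filter only through arrays of rescue and wild-type cells, so its place in these counts supports nothing further. Jun did not meet this rule, because its Srf-null value at 180 min exceeded the rescue value at 60 min, although it lay below both lines at each of these times. Both Srf-null arrays lay above all 4 for 1 of 9 (Atf3 97035_i_at), against 10.6% of all. These rules too were chosen after the values were seen.

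Lines were then compared over all 5 times with limma with line and time as additive terms and Benjamini-Hochberg adjustment over the 9558 probe sets, and a call was an adjusted p under 0.05. Srf-null cells were lower than rescue cells for Atf3 (104155_f_at) by a log2 difference of -2.05 ± 0.47 (SE), 0.241 times the rescue level, with an adjusted p of 0.119. The geometric means over 5 times were 339 in Srf-null, 1408 in rescue and 814 in wild-type cells. In this comparison 0 of 9 probe sets were called, where 0.22% of all tested probe sets were, and 4 of the 9 and 878 of the 9558 had an unadjusted p under 0.05. Without the 0 min arrays the Atf3 difference was -2.34 with an adjusted p of 0.0114, which passed the threshold. It also passed without the wild-type 0 min array alone (adjusted p 0.0432) and without the Srf-null 0 min array alone (-2.49, adjusted p 0.0184). It did not pass without the rescue 0 min array alone (-2.06, adjusted p 0.123) or without the 3 arrays of highest beta-actin ratio (-2.23, adjusted p 0.0516).

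The other members differed less between Srf-null and rescue cells. The log2 difference was -1.70 ± 0.56 for Atf3 by 104156_r_at (adjusted p 0.316). It could only be negative there, because that probe set was at the floor on all Srf-null arrays. The difference was -1.65 ± 0.64 for Junb by 102362_i_at (adjusted p 0.434) and -0.52 ± 0.33 for Fosb (adjusted p 0.692). The third Atf3 probe set, 97035_i_at, differed by 0.86 ± 0.34 (adjusted p 0.434), and Jun by -1.11 ± 0.67. For Junb by 102363_r_at, Fos and Fosl1 it was -0.42 ± 0.73, -0.05 ± 0.51 and 0.09 ± 0.28.

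Against wild-type cells, 0 of 9 probe sets were called in Srf-null cells, where 0% of all tested probe sets were; 3 of the 9 and 916 of the 9558 had an unadjusted p under 0.05. Srf-null cells differed by -0.72 ± 0.33 log2 units for Fosb (adjusted p 0.516), by -1.26 ± 0.47 for Atf3 104155_f_at (adjusted p 0.45) and by 0.95 ± 0.34 for Atf3 97035_i_at (adjusted p 0.422). The others differed by -1.14 to 0.40, where -1.14 belonged to Atf3 104156_r_at and could only be negative. With the share of values at or below 0 as a term, the difference was -0.30 for Fosb and -0.90 for Atf3 104155_f_at. For Jun it was -1.09 with that term, against -1.02 without it. Between rescue and wild-type cells, differences were 0.79 log2 units or less in size, 0 of 9 were called beside 0% of all tested probe sets, and 0 of the 9 and 693 of the 9558 had an unadjusted p under 0.05. The comparisons of Srf-null cells with each other line share the Srf-null arrays.

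**Figure D3:**
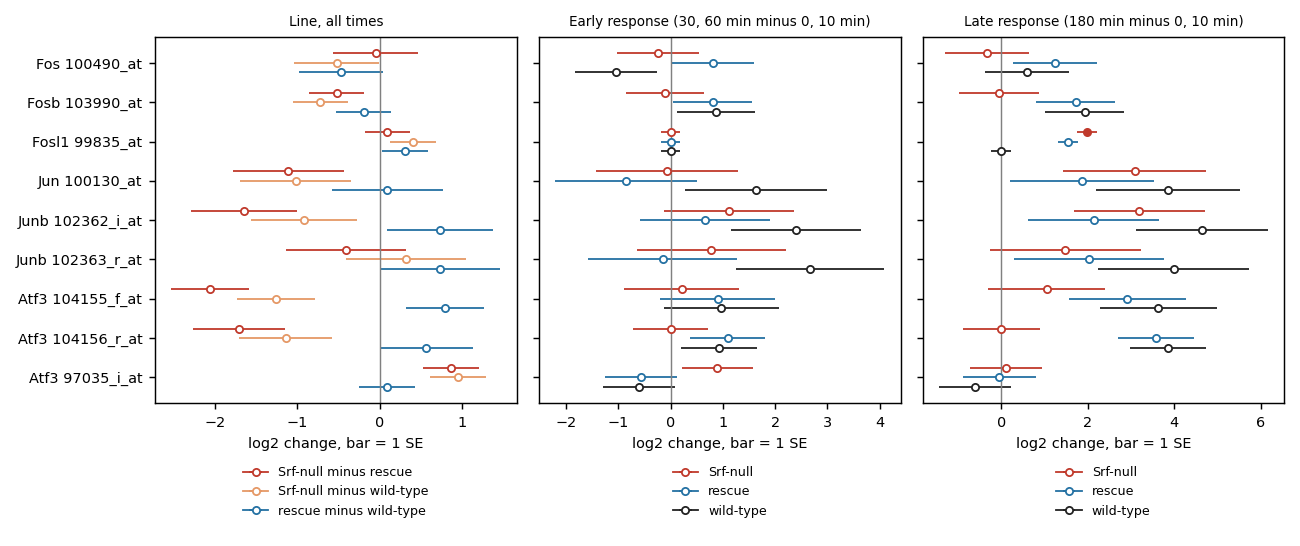
Log2 differences with standard errors from limma for each of the 9 probe sets in the line comparisons and in the early and late responses of each line, with bars of 1 SE and a filled point where the adjusted p was under 0.05. The 1 filled point is Fosl1 in the late response of Srf-null cells, at 1.99; Atf3 104155_f_at lies at -2.05 for Srf-null against rescue cells with an open point.

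Successive times were compared over the 3 lines in the same model. From 30 to 60 min Atf3 (104155_f_at) differed by 2.13 ± 0.61 log2 units, with an unadjusted p of 0.00422 and an adjusted p of 1. Fosb differed by 1.45 ± 0.43, with an unadjusted p of 0.00509 and an adjusted p of 1, and in Srf-null cells alone its values at these times were 1413 and 1621. For this step 0 of 9 were called beside 0% of all tested probe sets, and these 2 of the 9 and 239 of the 9558 had an unadjusted p under 0.05. Between 10 and 30 min, 0 of 9 were called beside 0% of all, with 0 of the 9 and 98 of the 9558 at an unadjusted p under 0.05. Between 60 and 180 min, 0 of 9 were called beside 0% of all, and 286 of the 9558 had an unadjusted p under 0.05. The 1 member among them was Fosl1, at 1.17 ± 0.36. Its probe set passed the filter only through the 180 min arrays of Srf-null and rescue cells. The difference could therefore only be positive, and it supports nothing further.

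Serum responses within a line were compared between a baseline (0 and 10 min), an early phase (30 and 60 min) and a late phase (180 min). The early phase of this design joined a time before the step with one after it. None of the 9 was called in it in Srf-null, rescue or wild-type cells, where 0.0732%, 0% and 0% of all tested probe sets were, and 0 of 9 had an unadjusted p under 0.05 in each line, against 781, 380 and 243 of the 9558. The early response of Junb in wild-type cells was 2.39 ± 1.24 and 2.67 ± 1.42 log2 units by its probe sets, and that of Fosb 0.87 ± 0.75.

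In the late phase of wild-type cells, 0 of 9 probe sets were called beside 0.282% of all tested, and 5 of the 9 and 809 of the 9558 had an unadjusted p under 0.05. These were Jun, both Junb probe sets and 2 of Atf3. For Atf3 104156_r_at both baseline arrays of wild-type cells lay at the floor. Its response there could only be 0 or above, is a lower limit, and its place among the 5 supports nothing further. In rescue cells its 0 min array lay at the floor, so its response there is a lower limit too. Junb by 102362_i_at differed from baseline by 4.64 ± 1.52 log2 units (adjusted p 0.409) and by 102363_r_at by 3.98 ± 1.74 (adjusted p 0.58). Atf3 differed by 3.85 ± 0.89 by 104156_r_at (adjusted p 0.192) and by 3.63 ± 1.35 by 104155_f_at (adjusted p 0.503), and Jun by 3.85 ± 1.66 (adjusted p 0.569). Fosb, at 1.92 ± 0.92 (adjusted p 0.615), was not among the 5. In rescue cells, 0 of 9 were called beside 0% of all, and 2 of the 9 (Fosl1 and Atf3 104156_r_at) and 346 of the 9558 had an unadjusted p under 0.05. There Atf3 differed by 3.58 ± 0.89 by 104156_r_at (adjusted p 0.615) and by 2.92 ± 1.35 by 104155_f_at, and Fosb by 1.71 ± 0.92.

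In Srf-null cells 1 of 9 was called in the late phase, beside 0.0314% of all tested probe sets. It was Fosl1, at 1.99 ± 0.23 log2 units above baseline (3.96-fold, adjusted p 0.0418), a lower limit because the baseline lay at the floor. The probe set passed the filter only through the 180 min arrays of Srf-null and rescue cells, so it had to differ there, and the call supports nothing further. It rests on the single 180 min array, and the spread behind it is small because 13 of the 15 arrays were set to one floor value. It was lost in most alternatives, with an adjusted p of 0.188 without the 0 min arrays. In rescue cells Fosl1 differed by 1.53 ± 0.23 (adjusted p 0.138), and in wild-type cells all values lay at the floor. Fosb differed by -0.06 ± 0.92 in Srf-null cells in this phase, Atf3 (104155_f_at) by 1.05 ± 1.35, Junb (102362_i_at) by 3.19 ± 1.52 and Jun by 3.08 ± 1.66.

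The difference between the early responses themselves was tested as an interaction. Between Srf-null and wild-type cells 0 of 9 probe sets were called beside 0% of all, and between Srf-null and rescue cells 0 of 9 beside 0.0105%, with 0 of 9 at an unadjusted p under 0.05 in each, against 597 and 791 of the 9558. A difference between the lines in the response of a member was therefore not called by the phases of this design. The difference of the late responses was not tested.

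Genes of the surrounding pathway were read from lists, each gene by its brightest probe set. Of 28 other bZIP partners, such as Jund and Fosl2, 21 were tested and 0 were called in any of the 14 comparisons. Jund, the Jun gene that is expressed without stimulation, was between 5999.8 and 21293 on all arrays, and its log2 difference between Srf-null and wild-type cells was -0.16 ± 0.29. Fosl2, which encodes FRA-2, was between 97.7 and 1146 and differed by 1.40 ± 0.41 (adjusted p 0.359). Of 35 upstream kinases and serum response factor cofactors, 22 were tested and 0 called.

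Of 49 other immediate-early genes 35 were tested and 0 were called in any comparison. Their median log2 difference from 30 to 60 min was 0.55, with 30 of 35 above 0, against a median of 0 over all tested probe sets, and the 6 members had a median of 1.65. In the late phase the list's median was 1.01 in Srf-null, 0.85 in rescue and 1.08 in wild-type cells, and that of the members 1.26, 1.79 and 2.77.

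Of 26 genes known as AP-1 targets 19 were tested and 1 was called. The call was between Srf-null and rescue cells, where 0.22% of all tested probe sets were called. Mt1, which encodes the metal-binding protein metallothionein, was lower in Srf-null than in rescue cells by -2.05 ± 0.29 log2 units (adjusted p 0.0103). Its values were 2031, 2037, 1481, 4548 and 14379 in Srf-null cells, 14177, 10436, 11130, 14831 and 20190 in rescue cells, and 8353, 4575, 3518, 10274 and 20066 in wild-type cells. Srf-null cells were the lowest at each of the 5 times, although their 180 min array lay above most arrays of the other lines. Against wild-type cells the difference was -1.22 ± 0.29 (adjusted p 0.287). Of 20 stress response genes 15 were tested and 1 was called, again between Srf-null and rescue cells (0.22% of all tested probe sets). Ddit4, which encodes an inhibitor of mTORC1 signalling, was lower in Srf-null than in rescue cells by -1.25 ± 0.22 (adjusted p 0.0477), with 1186 to 2940 in Srf-null, 3289 to 10029 in rescue and 1507 to 2605 in wild-type cells, so the rescue line stood apart from both others.

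The probe sets with the pattern most like each member were ranked by Pearson's r with the member's brightest probe set over the 15 arrays, which share lines, times and normalization. For Atf3 (104155_f_at) the first were Ccn1 at 0.949, Rhob at 0.892 and Ggnbp2 at 0.851. For Fosb they were Ccn1 at 0.849, Myadm at 0.818 and Nr4a1 at 0.801. For Jun they were Ier2 at 0.892, Ccn2 at 0.889 and Rhob at 0.887. Ccn1 and Ccn2 encode matricellular proteins, Rhob a small GTPase, and Ier2 and Nr4a1 immediate-early nuclear proteins. Among the members, Fosb and Atf3 (104155_f_at) correlated at 0.848, Jun and Junb (102362_i_at) at 0.87, and Junb (102362_i_at) and Atf3 (104155_f_at) at 0.817.

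For Junb, read by 102363_r_at as its brightest set, the first were Alg2 at 0.864, Rnf166 at 0.775 and Hcn3 at 0.722. For Fos they were Ndufa1 at 0.86, Wwc1 at 0.85 and H2-Ke6 at 0.84, and for Fosl1, above the floor on 2 arrays, Ppie at 0.731, Dennd4c at 0.674 and Slc39a7 at 0.673. With Fosb, Fos correlated at 0.419.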

How the data were processed

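Linear intensity values of 12654 probe sets, including 66 controls, form the deposited table, with 1 column per array and 0 columns without a sample. How the authors computed, corrected and scaled them is not given in the sources used here. Values at or below 0 occur on every array. The intensities were quantile-normalized between arrays, raised to a floor where lower (84.98, log2 6.41, the 40th percentile over all arrays) and log2-transformed. Tests covered the 9558 probe sets that exceeded the floor on 2 or more arrays. Names came from the platform annotation, and only probe sets with 1 symbol were named (10298).

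Tests used limma 3.58.1 (R 4.3.3) through lmFit and trended eBayes, with Benjamini-Hochberg adjustment over all tested probe sets. On simulated data only the mean estimated change was checked against the change put in. How many such changes were called is not given here. Lines and successive times came from an additive model of line and time (8 residual degrees of freedom), and responses from a model of phases within each line (6 residual degrees of freedom). Arrays, not depth, limit the precision. The members, lists and tests were chosen with earlier results of these data known. Named genes were all member probe sets, pathway list genes called in a comparison, Egr1, and the 3 probe sets most like each member, among those above the floor on at least 5 arrays; Igf2, Jund, Fosl2, Tfap2c and Fgf4 were named after their values were seen. Alternatives covered the scaling, the floor, the filter, the trend, the 18S signal and share of non-positive values as terms, the 0 min arrays, each array in turn and time as a replicate block. The time points are shared by the lines as labels of the course, and no label says that they mark shared cultures.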

Additional observations from a re-analysis of the deposited data

How the results depend on the processing

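Counts of member probe sets called kept within 1.5 times the reported count in 342 of 371 repeats under alternative settings, and 29 differed. The reported count was 0 in every comparison except the late response of Srf-null cells. Most of the 342 were therefore counts of 0 that stayed at 0, which says little about stability. For single probe sets, 3285 of 3313 repeats kept their side of the threshold, 18 lost a call, 10 gained one and 0 turned a called direction. Direction was not compared where neither fit was called, and some of those estimates turned in sign. The early response of Jun in rescue cells, for instance, ran from -3.05 to 0.88 log2 units over the settings. The late response of Srf-null cells went to 0 called, against 1 as reported (Fosl1), under trimmed-mean scaling (adjusted p 0.0568), common-median scaling (0.069), a floor at the 50th percentile (0.609), no intensity trend (0.131), a term for the non-positive share (0.1), 18S signal as a term (0.336), without the 0 min arrays (0.188) and with time as a replicate block (0.555), and was 0 to 1 when single arrays were left out. The replicate block changed no other count. For Srf-null against rescue cells the count was 1 (Atf3 104155_f_at) without the 0 min arrays, and 0 to 1 with single arrays left out. In the late response of rescue cells it was 1 (Fosl1) with no filter, where many probe sets had no spread at all, and 0 to 1 with single arrays left out (adjusted p 0.04 without Srf-null 10 min).

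Some settings were chosen after seeing the data. With the phase boundary after 30 min, Fosb was called in rescue cells (count 1, 1.82 log2 units, adjusted p 0.0198) and in wild-type cells (count 1, 2.01, adjusted p 0.00665). Without the 0 min arrays as well, these counts stayed at 1 (adjusted p 0.00202 and 0.000438), and the difference of this response between Srf-null and wild-type cells had a count of 1 (Fosb, -1.98, adjusted p 0.0263). With all arrays that difference was not called (adjusted p 0.195). The Fosb difference between Srf-null and rescue cells was not called with all arrays (-1.78, adjusted p 0.254) or without the 0 min arrays (-1.63, adjusted p 0.134). Because the boundary was set on these same values, those p-values are no independent evidence. Leaving out the 3 arrays of highest beta-actin ratio, or setting the floor at the 35th percentile, moved no count. A floor at the 25th percentile was not run, since it lay below 0 (-54.1). Common-median scaling shifted the median of all tested probe sets by -0.11 in the late response of Srf-null cells, and by -0.12 and -0.20 in the differences of early response from wild-type and rescue cells; trimmed-mean scaling shifted the last by -0.13. No depth is known for arrays, and with 1 array per line and time, low probe sets such as Fos and Fosl1 have no order below the floor.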
